A study of Mus musculus with 13 samples.

Results

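The 7 genes described here are Dnmt1, Uhrf1, Dnmt3a, Dnmt3b, Tet1, Tet2 and Tet3 of the mouse, taken by their exact symbols from the gene lists of both Parse kits, in which they are 7 of 57010 genes. The study barcoded fixed single cells of mouse immune tissue by split-pool ligation, in which RNA is labelled inside the cells over several rounds of well plates and counted as unique molecular identifiers (UMIs). The Parse WT kit held 20 tissue samples sequenced in 9 sublibraries, and the Parse Mini kit held 4 thymic samples sequenced in 2 sublibraries. The thymic samples of each kit were 4 thymic lobes from 2 female C57BL/6N mice of 2 months of age, a wild-type strain, for which the labels of the Mini kit give control and the study's methods describe no treatment. GEO lists the sublibraries and not the tissue samples, and the tissue sample of each cell came from the deposited cell tables. The 4 thymic Parse WT samples were recognised there by their names and carried thymocyte markers, with 14906 of their 37730 cells in the class of recombining double positive thymocytes against 2294 of 80033 cells of the 16 other samples. For those 16 samples the labels give thymus or spleen and control or chronic stress for the sublibraries as a whole, not for a single sample, so they are described by cell type only. The 10x Genomics data of the series were not analysed here.

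DNA methylation in mammals sits mostly on cytosines followed by guanine. Dnmt1 is the maintenance methyltransferase that copies the mark to the new strand after replication, and Uhrf1 brings it to hemimethylated DNA. Dnmt3a and Dnmt3b methylate unmarked sites de novo, while Tet1, Tet2 and Tet3 oxidise 5-methylcytosine as the first step of its removal. T cells develop in the thymus from double negative (DN) cells through proliferation to double positive (DP) cells, which recombine the T cell receptor alpha locus (DP-R), undergo selection (DP-S) and become CD4 or CD8 single positive (SP) cells or regulatory T cells (Treg). The loss of Dnmt3a or Tet2 is a known event in T cell and other blood malignancies.

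On GRCm38/mm10 the maintenance genes lie at chr9:20907209-20959888 on the minus strand (Dnmt1, ENSMUSG00000004099) and chr17:56303321-56323486 on the plus strand (Uhrf1, ENSMUSG00000001228). The de novo genes lie at chr12:3806007-3914443 (Dnmt3a, ENSMUSG00000020661) and chr2:153649450-153687730 (Dnmt3b, ENSMUSG00000027478), both on the plus strand. Tet1 (ENSMUSG00000047146, chr10:62804570-62908996), Tet2 (ENSMUSG00000040943, chr3:133463679-133545139) and Tet3 (ENSMUSG00000034832, chr6:83362373-83459084) are on the minus strand. The sources used here do not say if reads were counted by strand, and the antisense genes that overlap members held few UMIs in the thymic Parse WT cells, at most 223 for Gm42567 against 12122 for Tet2.

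Dnmt1 and Uhrf1 moved together with the cell cycle in the results that follow, so their promoters were searched for the 8-base letters TTTCCCGC, TTTGGCGC, TTTCGCGC and TTTGCCGC on either strand, which are spellings of the site of the E2F factors known for control of S phase genes. In the 250 bases before RefSeq starts of GRCm38.p6, 2 of the 7 members held such a word, each in 1 of its starts. The 30 bases around it are shown for these genes, 5′ to 3′ on the gene's own strand, with the matched letters in capitals.
Dnmt1: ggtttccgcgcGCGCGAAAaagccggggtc
Uhrf1: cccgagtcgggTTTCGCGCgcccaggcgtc
The Dnmt1 stretch is chr9:20952824-20952853 on the minus strand, with the word read from the opposite strand 219 bases before that start. The Uhrf1 stretch is chr17:56304117-56304146 on the plus strand, with the word on the same strand 185 bases before that start. Counted per promoter, these letters were present in 2 of 12 member promoters (16.7%) and in 611 of all 32851 (1.86%). Counted per gene, they were present in 2 of 7 members (28.6%), 583 of all 27025 genes (2.16%), 9 of 34 S phase genes (26.5%) and 4 of 52 G2/M genes (7.69%). A match of letters is a description and not a measured site.

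The thymic Parse WT samples held 3914 to 13348 cells and 16872743 to 55347485 UMIs outside ribosomal RNA each, the Mini samples 4101 to 4957 cells and 15382375 to 16492231 UMIs, and the other 16 Parse WT samples 2086 to 8011 cells and 3960838 to 40286697 UMIs. Levels are given as CPM, the UMIs of a gene in a cell class of a tissue sample scaled to a common total of UMIs outside ribosomal RNA. Rag1, a recombinase subunit of developing lymphocytes, averaged 475 CPM in the B cell-like class of the thymic Parse WT samples against 1589 CPM in DP-R-like cells, and its source there was not tested. The mean level of Ebf1, a B cell factor, was 36.8 CPM in DP-R-like cells against 1653 CPM in that B cell-like class.

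Over whole thymic Parse WT samples the UMIs of the members ran from 949 for Dnmt3b to 31849 for Tet3. Compared per kilobase of annotated exon, Tet3 (13.01 ± 1.73 CPM per kb, SD, n = 4) and Dnmt1 (13.2 ± 0.370) were the highest members in DP-R-like cells, followed by Dnmt3a (10.6 ± 0.741), and the difference between Dnmt1 and Tet3 was smaller than the SD of Tet3. Dnmt3b was the lowest member there, at 0.359 CPM per kb. The cycling S-like cluster was named by all 13 S phase markers, but 26.7% of its cells were S-high and 68.7% G2/M-high by the states described next. There the order changed, with Uhrf1 at 79.8 ± 24.7 and Dnmt1 at 74.0 ± 16.1 CPM per kb, which did not differ beyond their spread. Tet3 followed at 12.7 ± 2.70 and Dnmt3a at 12.4 ± 1.43. Per kilobase of the whole gene, introns included, the means were farther apart, with Uhrf1 at 16.9 ± 5.21 against Dnmt1 at 10.4 ± 2.25 in the cycling S-like cluster and Tet3 at 2.25 ± 0.298 against Dnmt1 at 1.85 ± 0.0522 in DP-R-like cells, each gap larger than either SD. In DN-like cells Dnmt3b reached 8.31 CPM per kb, next to Dnmt3a at 10.8, both per kilobase of exon.

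Cycling state was assigned without the members. Each thymocyte with at least 1000 UMIs was thinned to 1000, and called S-high with at least 6 UMIs of 46 S phase genes and more of these than of 58 G2/M genes, G2/M-high with at least 6 UMIs of the G2/M genes and no fewer than of the S genes, and cycling-low with at most 2 of each. In Parse WT this gave 1082 S-high, 8716 G2/M-high and 9022 cycling-low cells, and among all 31196 cells of these samples with 1000 UMIs, other types included, 2019 had 5 or 6 S gene UMIs and 3867 had 5 or 6 G2/M gene UMIs, next to the thresholds. Cycling cells were also richer in RNA, with a median of 4708 UMIs in S-high and 5382 in G2/M-high cells against 2419 in cycling-low cells.

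The maintenance genes rose in cycling thymocytes. Uhrf1 was measured at 469, 282, 355 and 325 CPM in the S-high cells of Parse WT thymic samples 1 to 4, against 19.0, 19.7, 19.6 and 23.9 CPM in their cycling-low cells. Dnmt1 was measured at 709, 489, 543 and 502 CPM in S-high and at 109, 86.0, 103 and 101 CPM in cycling-low cells. For both genes every S-high value lay above every cycling-low value, and sample 1 was the highest in S-high cells. The log2 fold change was 4.02 ± 0.09 for Uhrf1 (SE; 16.2-fold, adjusted p = 2.09e-27, edgeR) and 2.42 ± 0.05 for Dnmt1 (5.37-fold, adjusted p = 2.09e-27). Of all genes tested 0.575% had a higher log2 fold change than Uhrf1 and 2.45% a higher one than Dnmt1. G2/M-high cells, which came in part from the cycling S-like cluster, lay in between, with log2 fold changes of 3.17 for Uhrf1 and 1.87 for Dnmt1 over cycling-low cells.

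The other members split. Dnmt3b rose in S-high cells by a log2 fold change of 1.25 ± 0.22 (adjusted p = 1.15e-05), from 3.59, 5.18, 6.27 and 5.75 CPM in cycling-low to 13.2, 12.0, 13.3 and 13.4 CPM in S-high cells, on 79 UMIs in all S-high cells. Tet2 fell by 0.73 ± 0.08 on the log2 scale (0.603-fold, adjusted p = 3.91e-09), from 125, 96.9, 117 and 105 CPM to 94.6, 64.0, 67.1 and 58.2 CPM, with no overlap between the states. Tet3 fell by 0.22 ± 0.05 (adjusted p = 0.000554) and Tet1 by 0.26 ± 0.10 (adjusted p = 0.0300), and the ranges of both states overlapped for each gene. These are falls in the share of UMIs, and the median S-high cell held more UMIs. Tet2 had 408 UMIs in 1082 S-high and 3281 in 9022 cycling-low cells. The UMIs of Tet3 were 1351 and 7632 and those of Tet1 281 and 1609 in the same cells. Change per cell was not tested. Dnmt3a, at 268, 227, 244 and 242 CPM in S-high and 255, 196, 230 and 241 CPM in cycling-low cells, had a log2 fold change of 0.04 with a 95% interval of -0.06 to 0.14. In G2/M-high cells Dnmt3a fell by 0.23 ± 0.04 (adjusted p = 6.39e-06), Tet1 by 0.48, Tet2 by 0.68 and Tet3 by 0.21, while Dnmt3b rose by 0.44 ± 0.15 (adjusted p = 0.0129). The falls in G2/M-high cells are also falls in the share of UMIs. Dnmt3a had 10298 UMIs in 8716 G2/M-high and 6919 in 9022 cycling-low cells. The UMIs of Tet1 were 2022 and 1609, those of Tet2 3544 and 3281 and those of Tet3 11105 and 7632.

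In counts, 3 of 7 members were called higher and 3 lower in S-high cells, where 26.8% of the 12523 genes tested were called higher and 25.1% lower, and 3 were called higher and 4 lower in G2/M-high cells, where 28.5% of genes were called higher and 27.1% lower. The Mini kit gave the same 3 and 3 in S-high cells, where 26.4% of 11628 genes were called higher and 21.7% lower, and the same 3 and 4 in G2/M-high cells, where these shares were 26.0% and 23.7%. Its S-high log2 fold changes were 4.25 for Uhrf1, 2.48 for Dnmt1, 1.70 for Dnmt3b, -0.11 for Dnmt3a (adjusted p = 0.172), -0.22 for Tet3, -0.52 for Tet2 and -0.41 for Tet1. The calls of Tet1 in S-high and of Dnmt3b in G2/M-high cells each rested on single samples. Without Parse WT sample 3 Tet1 was at -0.17 (adjusted p = 0.234), without sample 1 at -0.20 (adjusted p = 0.136), and without Mini sample 1-B at -0.21 (adjusted p = 0.277), whereas Dnmt3b in G2/M-high cells had adjusted p = 0.0814 without Parse WT sample 1, 0.0619 without sample 4 and 0.0559 without Mini sample 1-B. The lobes of a mouse are not independent, so p-values over lobes are too small. With counts summed per mouse over both kits no call in these contrasts changed. That fit holds the mice of both kits, so it does not test either kit on its own 2 mice.

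**Figure D1:**
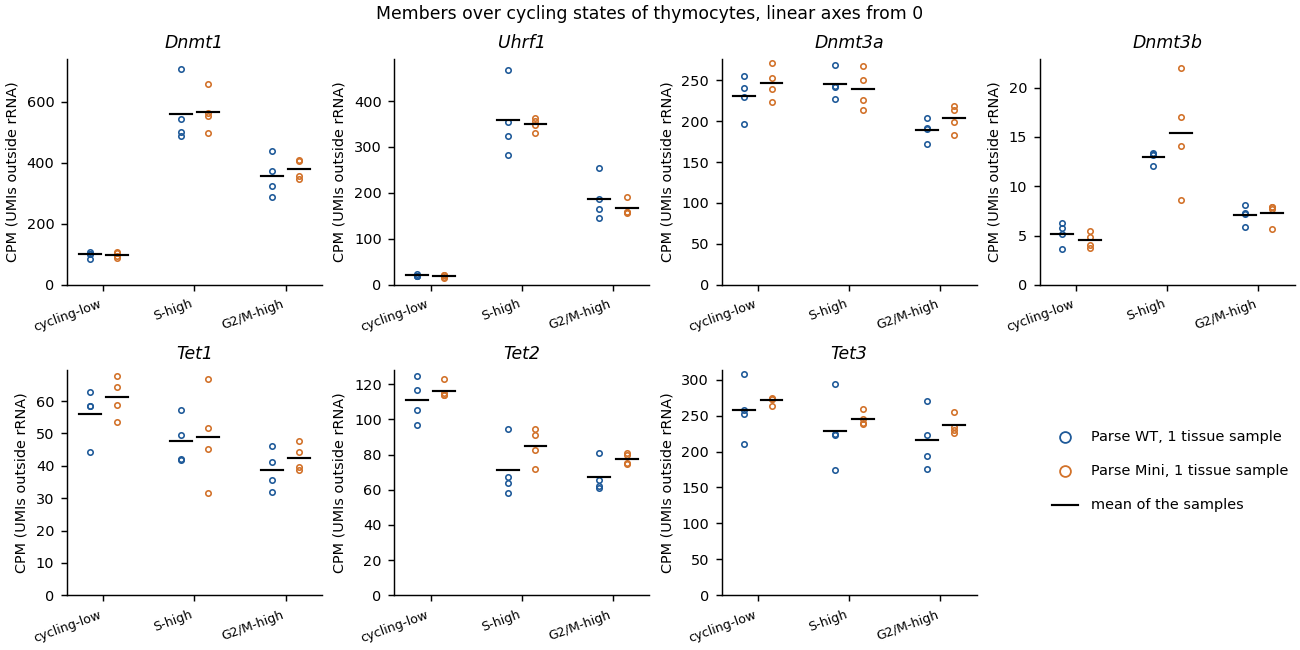
Each panel plots a member's level (y axis, CPM outside ribosomal RNA, linear from 0) in cycling-low, S-high and G2/M-high thymocytes (x axis), with a circle for each tissue sample of Parse WT (blue) and Parse Mini (orange) and a black bar at the mean of the kit. Dnmt1 and Uhrf1 were lowest in cycling-low and highest in S-high cells in every sample, the Tet2 means were lower in both cycling states, and the Dnmt3a mean was lower in G2/M-high cells and near the cycling-low mean in S-high cells.

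Levels were also taken over bins of the number of S gene UMIs per thinned cell, which do not separate a gradual rise from a mix of cells at a low and a high level. In Parse WT mean Dnmt1 was 103 CPM in cells with 0 S gene UMIs of 1000, 143 with 1 to 2, 287 with 3 to 5, 488 with 6 to 9 and 677 with 10 or more. Uhrf1 went from 23.3 over 47.6, 148 and 275 to 413 CPM in the same bins. Both maintenance genes were thus higher in each bin than in the bin before it. Tet2 went the other way, from 104 over 96.1, 79.0 and 62.9 to 56.0 CPM, and Tet1 from 55.8 to 37.6 CPM. Dnmt3a stayed between 202 and 223 CPM in all 5 bins. In the Mini kit Dnmt1 went from 98.3 to 711, Uhrf1 from 21.5 to 380 and Tet2 from 116 to 66.6 CPM between the lowest and the highest bin.

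**Figure D2:**
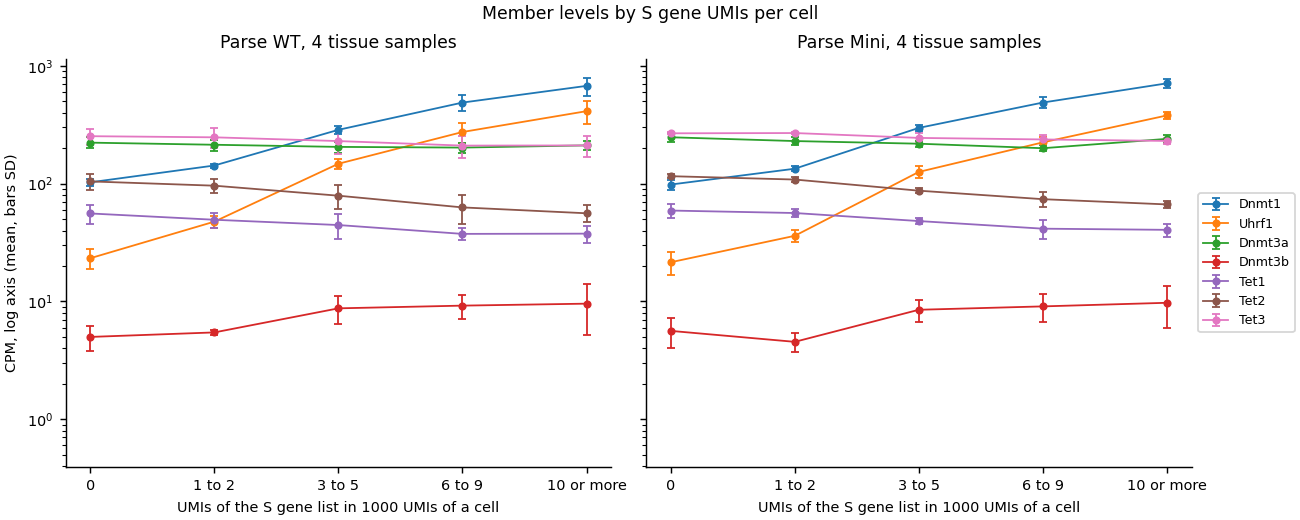
Mean level of each member (y axis, CPM on a log axis) by the number of S phase gene UMIs among 1000 UMIs of a cell (x axis: 0, 1 to 2, 3 to 5, 6 to 9, 10 or more), with Parse WT and Parse Mini in separate panels and error bars of 1 SD over 4 tissue samples. The Uhrf1 and Dnmt1 lines climb over all 5 bins, the Tet2 and Tet1 lines decline, and the Dnmt3a line is nearly level.

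S-high cells came mostly from the clusters of proliferating thymocytes, so state and stage were partly mixed in this comparison. DN-like cells, in which Dnmt3b was high, were 5.65% S-high against 0.528% of DP-R-like cells. Restricted to DP-R-like and DP-S-like cells, Uhrf1 still rose in S-high cells by a log2 fold change of 3.62 ± 0.22 and Dnmt1 by 1.86 ± 0.15 in Parse WT, and by 3.20 and 1.59 in the Mini kit. Tet2 was at -0.86 (adjusted p = 0.0289) in Parse WT and at 0.41 (adjusted p = 0.567) in the Mini kit, and the calls of Tet1 and Tet3 were lost in both, with Tet1 at 0.14 ± 0.30 and Tet3 at -0.39 ± 0.16 in Parse WT and at -0.06 ± 0.43 and 0.13 ± 0.19 in the Mini kit. These sums were small, with 87 S-high cells in 3 Parse WT samples and 51 in 2 Mini samples, since a sum needed 20 cells. Dnmt3b had no value in this restricted comparison, so its rise in S-high cells was not checked within these stages. In G2/M-high cells of the same clusters, with 1732 Parse WT cells in 4 samples, Uhrf1 rose by 1.56 and Dnmt1 by 0.64, Tet2 was at -0.15 and Dnmt3a at 0.08, neither of them called. The G2/M-high falls of Tet1 and Tet3 were not called there in Parse WT either. In the 927 G2/M-high Mini cells of these clusters Dnmt3a was at 0.03 and Tet2 at 0.0079, neither called.

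Over the thymocyte stages DN-like cells stood apart by Dnmt3b. It was measured at 47.7, 38.6, 47.1 and 36.3 CPM in the DN-like cells of Parse WT samples 1 to 4, on 29 to 115 UMIs each, against 0.599, 2.16, 2.82 and 1.74 CPM in DP-R-like cells, on 3 to 21 UMIs each. The groups did not overlap, and the log2 fold change was 4.30 ± 0.21 (19.7-fold, adjusted p = 4.32e-24). A Dnmt3b UMI was seen in 20.3% of DN-like cells, in 0.376% of DP-R-like cells and in 2.44% of B cell-like cells, or in 4.11%, 0.182% and 0.545% after thinning to 1000 UMIs. The median depth was 5955 UMIs in DN-like and 1522 in DP-R-like cells. The lowest share in the cell types of the other samples was 0.324% (0.0799% after thinning) in erythroid-like cells, at a median of 4868 UMIs, and how much of the DP-R-like level that serves as the reference is background was not tested. In the Mini kit the DN-like values were 42.9, 47.3, 49.0 and 47.0 CPM and the log2 fold change 4.90 ± 0.29 (adjusted p = 2.02e-20).

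Uhrf1 and Dnmt1 also rose in DN-like cells. Uhrf1 was at 145, 122, 166 and 132 CPM against 17.8, 25.8, 23.7 and 29.5 CPM in DP-R-like cells (log2 fold change 2.39 ± 0.16, adjusted p = 7.24e-19), and Dnmt1 at 196, 231, 233 and 205 CPM against 94.6, 96.3, 97.6 and 101 CPM (1.08 ± 0.08, adjusted p = 1.78e-16). Neither gene's groups overlapped. Dnmt3a (-0.02), Tet1 (0.21, adjusted p = 0.102), Tet2 (-0.05) and Tet3 (0.11, adjusted p = 0.0664) did not pass. Thus 3 of 7 members were called, all higher, where 30.1% of 11692 genes were called higher and 3217 lower. In the Mini kit 4 were called higher beside 26.2% of 10477 genes, Tet1 being the fourth (0.46 ± 0.14, adjusted p = 0.00380), and that call was lost without sample 2-A (0.31, adjusted p = 0.112).

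More DN-like than DP-R-like cells were called G2/M-high, 32.1% against 10.9%, at a mean of 5.33 against 3.02 G2/M gene UMIs of 1000. Mki67, a marker of proliferation, was at 319 to 617 CPM in DN-like and 61.1 to 264 CPM in DP-R-like cells of the 4 samples. Among cycling-low cells alone, Dnmt3b was higher in DN-like cells by a log2 fold change of 4.36 ± 0.43 in Parse WT and 5.36 in the Mini kit, and Uhrf1 by 2.44 ± 0.25 and 2.49. Dnmt1 was higher by 0.35 ± 0.14 (adjusted p = 0.0400) in Parse WT and by 0.38 (adjusted p = 0.130, not called) in the Mini kit. The Uhrf1 difference was about as large as in all DN-like cells, whereas the Dnmt1 difference was smaller than the 1.08 and 1.22 of all cells. The cycling-low DN-like Uhrf1 level was 104 ± 57.0 CPM (SD, n = 4 samples, 45.4 to 181) on 146 UMIs in 278 cells.

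The DP-S-like class of Parse WT joined clusters of 2825 and 216 cells with 3 of 8 DP-S-like markers raised. It also held clusters of 1898 and 445 cells with 8 of 8 raised, and the Mini clusters had 6 or 8 of 8. The SP-CD4-like cluster had 3 of 5 SP-CD4-like markers raised in each kit, beside 6 of 8 DP-S-like markers in Parse WT and 8 of 8 in Mini. The Parse WT DP-S-like cluster of 445 cells also had 3 of 5 SP-CD4-like markers raised. The border between these 2 classes may thus differ between kits. From DP-R-like cells to the selected and single positive stages Dnmt3a rose. Its levels were 187, 159, 176 and 182 CPM in DP-R-like, 286, 215, 250 and 247 in DP-S-like and 334, 237, 311 and 308 in SP-CD4-like cells of samples 1 to 4, every Parse WT sample rising at both steps. The log2 fold change over DP-R-like cells was 0.48 ± 0.06 in DP-S-like (adjusted p = 2.65e-09), 0.68 ± 0.06 in SP-CD4-like (adjusted p = 7.41e-14), 0.47 ± 0.07 in mature SP-CD4-like and 0.53 ± 0.07 in SP-CD8-like cells. The highest stage mean was in Treg-like cells, at 436, 281, 340 and 369 CPM (0.93 ± 0.07, 1.91-fold, adjusted p = 4.63e-17), a cluster with Foxp3 at 36.3 CPM against 1.06 CPM in DP-R-like cells. The Treg-like and SP-CD4-like ranges of Dnmt3a overlapped, while within each sample the Treg-like value was the higher one. These classes were not tested against each other.

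Tet2 and Tet3 were higher in the single positive classes too. Tet2 was measured at 98.8, 81.6, 84.6 and 75.7 CPM in DP-R-like, at 210, 120, 172 and 112 in SP-CD8-like and at 184, 127, 181 and 160 in Treg-like cells, with no overlap between DP-R-like cells and either class. The log2 fold changes of Tet2 were 0.46 ± 0.09 in SP-CD4-like, 0.58 ± 0.09 in mature SP-CD4-like, 0.76 ± 0.10 in SP-CD8-like and 0.85 ± 0.10 in Treg-like cells. Tet3 rose by 0.29 ± 0.05 in SP-CD4-like, 0.53 ± 0.05 in mature SP-CD4-like, 0.49 ± 0.06 in SP-CD8-like and 0.44 ± 0.06 in Treg-like cells, higher in 4 of 4 samples each, and its range overlapped that of DP-R-like cells in each class except mature SP-CD4-like. Tet1 rose in SP-CD4-like (0.39 ± 0.10) and mature SP-CD4-like cells (0.42 ± 0.11), was at 0.20 in SP-CD8-like cells (adjusted p = 0.243) and at -0.07 in Treg-like cells (adjusted p = 0.721). Without Parse WT sample 4 the Tet1 value in mature SP-CD4-like cells was 0.34 (adjusted p = 0.0597).

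Dnmt1 was higher than in DP-R-like cells at each later stage of Parse WT, by 0.31 in DP-S-like, 0.40 in SP-CD4-like and mature SP-CD4-like, 0.45 in Treg-like and 0.79 ± 0.10 in SP-CD8-like cells. Mini Dnmt1 passed in SP-CD4-like (0.61) and SP-CD8-like cells (0.72), but not in DP-S-like (0.22, adjusted p = 0.108) or mature SP-CD4-like cells (0.05, adjusted p = 0.832), where it was higher in 2 of 4 samples. Among cycling-low Mini cells the latter classes had Dnmt1 at -0.05 and -0.21, neither called. Of these stages Uhrf1 passed in Parse WT only in SP-CD8-like cells (0.80 ± 0.25, adjusted p = 0.00811), where 3.58% of cells were S-high against 0.528% in DP-R-like cells. It was at 0.48 in Treg-like cells (adjusted p = 0.137) and passed there with gene names sorted in another order for the clustering (0.68, adjusted p = 0.0172), without sample 1 (0.53, adjusted p = 0.0200) and in 1 of 2 readings of which lobes share a mouse (0.50, adjusted p = 0.0230). Mini Uhrf1 passed instead in SP-CD4-like cells (0.79 ± 0.22, adjusted p = 0.00316) and was at 0.76 in SP-CD8-like (adjusted p = 0.0769) and -0.36 in mature SP-CD4-like cells (adjusted p = 0.506). The Mini SP-CD4-like rise of Uhrf1 was not seen in mean levels of cycling-low cells, which were 14.4 CPM in SP-CD4-like and 14.7 CPM in DP-R-like cells. Dnmt3b rose from its low DP-R-like level in SP-CD4-like (1.42), mature SP-CD4-like (1.59), SP-CD8-like (1.71) and Treg-like cells (2.06 ± 0.39), to mean levels of 5.50 to 8.61 CPM. Its call in DP-S-like cells (0.82 ± 0.31, adjusted p = 0.0394) was lost without sample 1, 3 or 4 (adjusted p = 0.108, 0.108 and 0.260).

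In all, 4 of 7 members were called higher in DP-S-like cells, where 14.4% of all genes tested were called higher. The count was 6 each in SP-CD4-like (20.6% of genes higher), mature SP-CD4-like (19.4%) and SP-CD8-like cells (21.0%) and 5 in Treg-like cells (22.8%). No member was called lower in these classes, where from 1476 (DP-S-like) to 2297 (Treg-like) of 11692 genes were called lower. The Mini kit had no cluster named Treg-like, but all 6 Treg-like markers were raised in its cluster of 267 NK-like or innate-like cells, and a cluster of 327 cells led by Itgb8, Tnfrsf9 and Lad1 was in its DP-S-like class, while Itgb8 and Lad1 also led the Treg-like cluster of Parse WT. Of the members 3 were higher and Tet1 was lower in DP-S-like cells of the Mini kit, where 14.6% of genes were called higher and 13.8% lower. In that kit 7 members were higher in SP-CD4-like (20.2% of genes higher) and 5 each in mature SP-CD4-like (15.7%) and SP-CD8-like cells (18.3%). Mini sample 2-A went from 335 CPM of Dnmt3a in DP-S-like to 316 CPM in SP-CD4-like cells, while the other 3 samples rose at that step. Mini Dnmt3a was at 0.71 ± 0.07 in DP-S-like, 0.75 in SP-CD4-like, 0.44 in mature SP-CD4-like and 0.61 in SP-CD8-like cells. The Mini Tet1 value in DP-S-like cells, -0.36 (adjusted p = 0.0244), went to 0.02 with another clustering and lost its call without sample 1-B, 2-A or 2-B (adjusted p = 0.0678, 0.103 and 0.127), and in Parse WT it was 0.04.

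**Figure D3:**
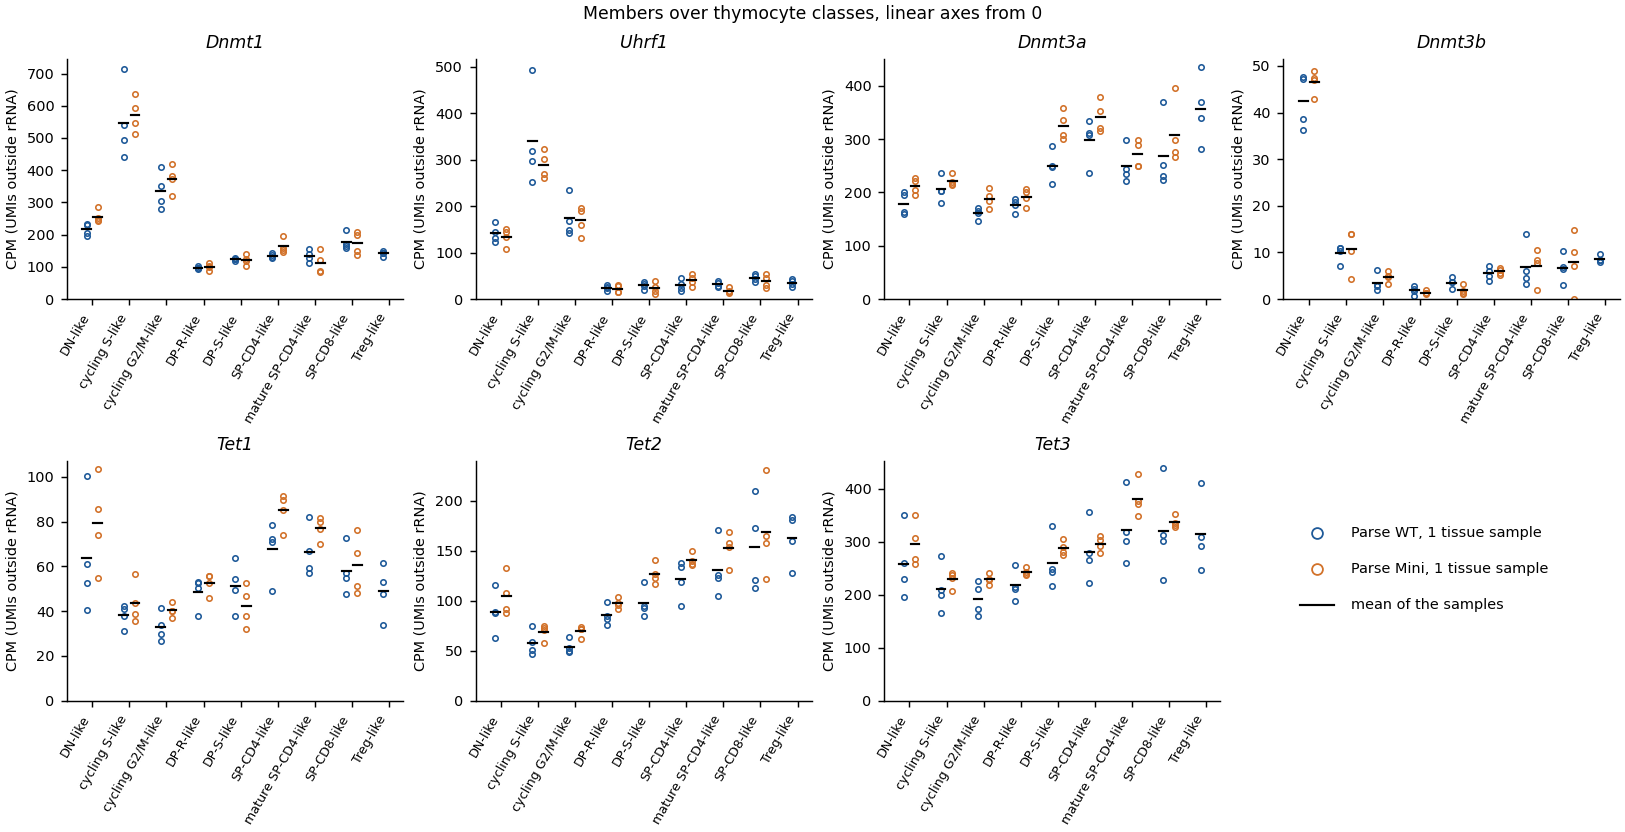
Each panel plots a member's level (y axis, CPM outside ribosomal RNA, linear from 0) over the 9 thymocyte classes (x axis), with a circle for each tissue sample of Parse WT (blue) and Parse Mini (orange) and a black bar at the mean. Dnmt3b peaks in DN-like cells of every sample, Dnmt1 and Uhrf1 peak in cycling S-like cells, and Dnmt3a is highest in the selected and single positive classes, with the Treg-like circles of Parse WT between 281 and 436 CPM.

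SP-CD8-like cells were compared directly with the CD4 classes. The SP-CD8-like cluster of each kit had 3 of 5 SP-CD8-like markers and 7 of 7 mature SP markers raised. The paper reports that Cd4 and Cd8a did not set SP-CD8 cells apart in its Mini data, so the Mini class is less certain. Against SP-CD4-like cells Dnmt1 (0.39 ± 0.11, adjusted p = 0.00652), Tet3 (0.21, adjusted p = 0.0138) and Tet2 (0.31, adjusted p = 0.0452) were higher in Parse WT, 3 of 7 where 8.12% of genes were called higher, and none passed in the Mini kit, where 13.5% of genes were called in either direction and Dnmt1 was at 0.11 with a 95% interval of -0.18 to 0.39. Against mature SP-CD4-like cells, a comparison chosen after the data were seen, Dnmt1 was higher in Parse WT (0.39, adjusted p = 0.0242) and in the Mini kit (0.67 ± 0.17, adjusted p = 0.0115) and was the only member called in either, where 3.12% and 2.71% of genes were called higher. Among cycling-low cells this difference was 0.50 in Parse WT (adjusted p = 0.0623) and 0.81 in the Mini kit (adjusted p = 0.0521), not called in either. Against SP-CD4-like cells each of these calls was lost without some samples: Dnmt1 without sample 3 or 4 (adjusted p = 0.0719 and 0.0607), Tet3 without sample 1 or 4 (0.0603 and 0.138), and Tet2 without sample 1, 2 or 3 (0.213, 0.0845 and 0.169).

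Among cycling-low cells of Parse WT alone the rise of Dnmt3a was 0.51 in DP-S-like, 0.75 in SP-CD4-like, 0.56 in mature SP-CD4-like, 0.60 in SP-CD8-like and 1.09 ± 0.10 in Treg-like cells, and that of Tet2 was 0.49, 0.63, 0.78 and 0.99 in the last 4 of these classes, all called. Uhrf1 had no call after the DN-like class, with -0.24 in SP-CD4-like, 0.40 in SP-CD8-like and -0.81 ± 0.50 in Treg-like cells (adjusted p = 0.225). Dnmt1 in Treg-like cells went from 0.45 in all cells to 0.01 ± 0.16 in cycling-low cells (adjusted p = 0.986), with 20.0% of Treg-like cells G2/M-high against 10.9% of DP-R-like cells. The Dnmt1 call was also lost in DP-S-like (0.21, adjusted p = 0.116) and mature SP-CD4-like cells (0.16, adjusted p = 0.365), while Dnmt1 was at 0.29 in SP-CD4-like and 0.66 ± 0.13 in SP-CD8-like cells, both called. Dnmt3b lost its call in DP-S-like (0.75), SP-CD4-like (1.17, adjusted p = 0.104) and Treg-like cells (1.30 ± 0.86, adjusted p = 0.267), and was at 2.12 in mature SP-CD4-like and 1.80 in SP-CD8-like cells. Among cycling-low cells of the Mini kit Dnmt3b was also not called in mature SP-CD4-like cells (2.18, adjusted p = 0.0648), nor Tet3 in SP-CD4-like cells (0.20, adjusted p = 0.0797). In these Mini cells mean Uhrf1 was 14.4 ± 2.99 CPM in SP-CD4-like against 14.7 ± 4.08 CPM in DP-R-like cells (SD, n = 4). Dnmt3b was at 1.78 ± 2.44 against 1.26 ± 1.02 CPM in the same classes, on 5 and 10 UMIs. Neither gene differed there beyond its spread.

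**Figure D4:**
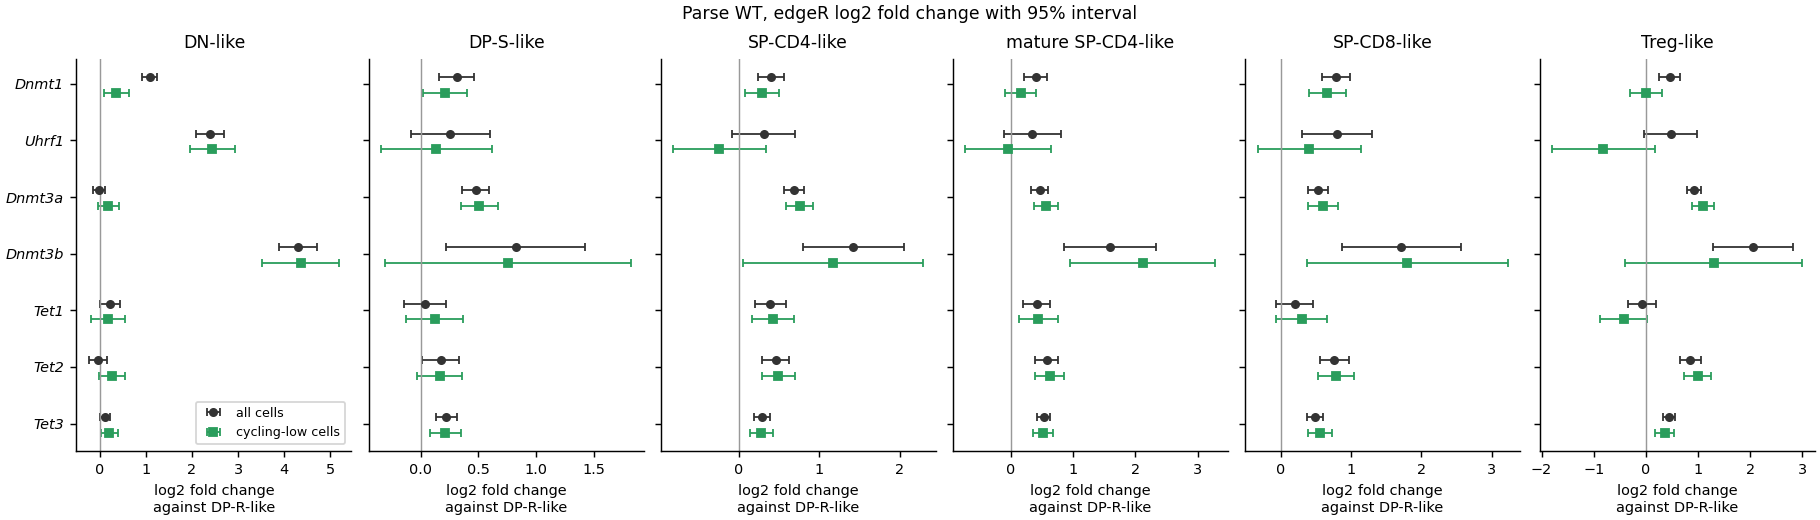
Log2 fold change of each member over DP-R-like cells in Parse WT (x axis) for 6 classes, with bars over the 95% interval, for all cells (black circles) and for cycling-low cells alone (green squares). The Dnmt3b and Uhrf1 points of DN-like cells and the Dnmt3a and Tet2 points of Treg-like cells keep their place, while the Dnmt1 point of Treg-like cells moves from 0.45 to 0.01.

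The 3 proliferating clusters of Parse WT gave the cycling pattern again by class. Over DP-R-like cells Uhrf1 was higher by 3.61 ± 0.13 in cycling S-like, 2.76 in cycling G2/M-like and 2.66 in cycling mature T-like cells, and Dnmt1 by 2.36, 1.78 and 1.79. Tet2 was lower in cycling S-like (-0.67 ± 0.09) and cycling G2/M-like cells (-0.63 ± 0.09) and was at -0.02 in cycling mature T-like cells with a 95% interval of -0.20 to 0.16. In the S cluster 4 members were called higher and 3 lower, where 33.7% of genes were called higher and 34.4% lower. In the G2/M cluster 2 were higher and 3 lower, where these shares were 23.9% and 26.5%. In the cycling mature cluster 4 were higher and 0 lower, where 28.0% of genes were higher and 2821 of 11692 were lower. The Tet3 call in the S cluster (-0.14) was lost without sample 1, 2 or 4 (adjusted p = 0.0544, 0.254 and 0.0969), that in the G2/M cluster (-0.15) without sample 2 or 4 (adjusted p = 0.0994 and 0.119), and the Dnmt3a call in the S cluster (0.14) without sample 3 or 4 (adjusted p = 0.129 and 0.0810). In the Mini kit 3 were higher and 3 lower in both clusters, where 30.2% of genes were higher and 33.1% lower (S) and 25.3% higher and 26.3% lower (G2/M). The Mini Tet3 call in the G2/M cluster was lost without sample 1-B, 2-A or 2-B (adjusted p = 0.216, 0.304 and 0.139), that in the S cluster without sample 2-B (0.0865), and the Tet1 call in the S cluster without sample 1-B (0.109). The cycling mature cluster had a median of 3.12 times the UMIs of its samples' cells. This was 2.555 times in the DN-like, 2.476 in the cycling S-like and 2.466 in the cycling G2/M-like cluster. How many cells of these clusters are doublets was not tested.

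Other genes of the pathway were read from lists of maintenance partners, readers of methylated DNA, oxidation and base excision, methyl donor supply and methyltransferase homologues. In S-high against cycling-low cells of Parse WT, where 26.8% of all genes rose and 25.1% fell, 3 of 4 tested maintenance partners outside the cycling lists rose and none fell, with a median log2 fold change of 0.68 beside -0.02 over all genes. Lig1, the ligase that joins new DNA at replication, rose by 4.26 ± 0.11, and Trim28, a corepressor, by 1.10. Of 10 readers 2 rose and 4 fell (median -0.19): Mbd4, a glycosylase that also binds methylated DNA, rose by 2.14, and Zbtb4 fell by 0.88. Of 11 tested oxidation and base excision genes 4 rose and 3 fell (median -0.10), Mbd4 among them again with Apex1, the abasic site endonuclease (1.72). Of 12 methyl donor genes 7 rose and 3 fell (median 0.57), led by Shmt1 (2.87) and Shmt2 (2.11), the serine hydroxymethyltransferases of the folate cycle. Trdmt1, the 1 homologue that was tested, did not pass.

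In SP-CD4-like against DP-R-like cells 2410 of 11692 genes tested rose (20.6%) and 2171 fell. Of 8 tested maintenance partners 2 rose and 4 fell (median -0.16), with Cdca7, a partner of the remodeller Hells, down by 0.95 on the log2 scale and Hells up by 0.55. Of 10 readers 2 rose and 4 fell (median -0.02), the largest being Zbtb4 (0.65) and Zbtb38 (0.63). Of 11 oxidation and base excision genes 4 rose and 3 fell (median 0.11), with Gadd45b, a stress gene linked to demethylation, up by 1.98 and Apex1 by 1.41. Of 12 methyl donor genes 3 rose and 3 fell (median 0.15), with Mthfd1 up by 1.53 and Shmt1 by 1.42, both enzymes of folate metabolism. Some of these changes rest on few UMIs in DP-R-like and SP-CD4-like cells. Gadd45b had 48 and 62 UMIs there, Apex1 91 and 77, and Shmt1 64 and 54.

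The genes most alike in pattern were ranked by Pearson correlation of log2(CPM + 1) over 40 sums of class and sample in Parse WT, among 6581 genes of at least 20 CPM. The sums share samples and sequencing depth, and r is a description. Dnmt1 was most like Wdhd1 (r = 0.97), Brca1, Baz1b, Pola1 and Pcna, and Uhrf1 most like Trim37 (r = 0.97), Pola1, Dtl, Exo1 and Mms22l. Dnmt3a was most like Ext1 (r = 0.90), Traf3, Mllt6, Rftn1 and Gramd1b, and Dnmt3b most like Hdac4 (r = 0.88), Tsc22d1, Mcub, Ndrg1 and Fam169b. Among the Tet genes Tet2 was most like Zhx2 (r = 0.94), Dip2b, Cyth1, Rftn1 and B4galnt1, Tet3 most like Foxk1 (r = 0.92), Rassf5, Arhgap17, Abcc4 and Ccdc88c, and Tet1 most like Washc2 (r = 0.85), Fbxw4, Mycbp2, Zfp652 and Slc2a9. Between members r was 0.95 for Dnmt1 with Uhrf1, 0.85 for Tet2 with Tet3, 0.80 for Dnmt3a with Tet2 and -0.64 for Uhrf1 with Tet2. Pola1, Pcna, Dtl and Exo1 are S phase genes of the cycling lists.

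In the other 16 Parse WT samples the members are given by cell type as the median and range over samples, with no test. The maintenance genes were highest in erythroid-like cells, with Dnmt1 at 541 CPM (426 to 764) and Uhrf1 at 315 CPM (227 to 400) over 15 samples, a type of which 82.0% of cells were G2/M-high and 13.5% S-high. The same erythroid-like cells had the lowest medians of Dnmt3a (16.3 CPM, 5.02 to 36.8) and Tet2 (16.8 CPM) among the types. Cycling B-like cells had Dnmt1 at 472 CPM and Dnmt3a at 36.9 CPM (28.6 to 72.3), against 112 and 143 CPM (53.2 to 204) in B-like cells. Uhrf1 was at 7.25 CPM in B-like cells.

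Dnmt3a had its highest medians in macrophage-like (405 CPM, 215 to 762) and conventional dendritic cell (cDC)-like cells (407 CPM, 100 to 517). Tet2 was highest in monocyte-like (310 CPM, 172 to 420) and cDC-like cells (298 CPM, 148 to 585), against 130 CPM (88.0 to 151) in B-like cells. Monocyte-like and B-like ranges of Tet2 did not overlap. Tet3 was highest in CD4 T-like (432 CPM, 225 to 505) and macrophage-like cells (431 CPM, 244 to 574) and lowest in plasma-like cells (129 CPM, 64.9 to 178). Dnmt3b had its highest median in NK-like cells (30.4 CPM, 0 to 46.4). In plasmacytoid dendritic cell-like cells Uhrf1 was at 0 in 7 of 13 samples. The cDC-like class of the thymic Parse WT samples had Dnmt3a at 112 to 152 CPM, on 63 cells in 3 samples. In the thymic cDC-like or macrophage-like class it was at 204 to 378 CPM, on 196 cells in 4 samples.

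Tet1 was lower over whole samples outside the thymic ones. Its highest median by type there was 18.3 CPM (0 to 71.1) in DP-R-like cells, on 45 UMIs in 13 samples, against 37.7 to 53.0 CPM in the DP-R-like cells of the thymic samples. It was at 1.03 CPM in monocyte-like, 2.49 CPM in B-like, 11.9 CPM (0 to 41.6) in CD4 T-like and 15.5 CPM (0 to 37.2) in plasmacytoid dendritic cell-like cells, while over whole samples it was at 37.4 to 55.1 CPM in the 4 thymic Parse WT samples and at most 15.9 CPM in the others. The B-like class of the thymic samples had Tet1 at 31.9 ± 23.1 CPM and Uhrf1 at 63.4 ± 18.6 CPM (SD, n = 4), against at most 5.75 and 17.7 CPM in B-like cells of the other samples. The thymic Tet1 values ran from 3.02 to 58.0 CPM, so that the lowest lay within the range of the other samples. These values stand beside the Rag1 level given above, and the part of thymocyte RNA in these values was not tested.

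**Figure D5:**
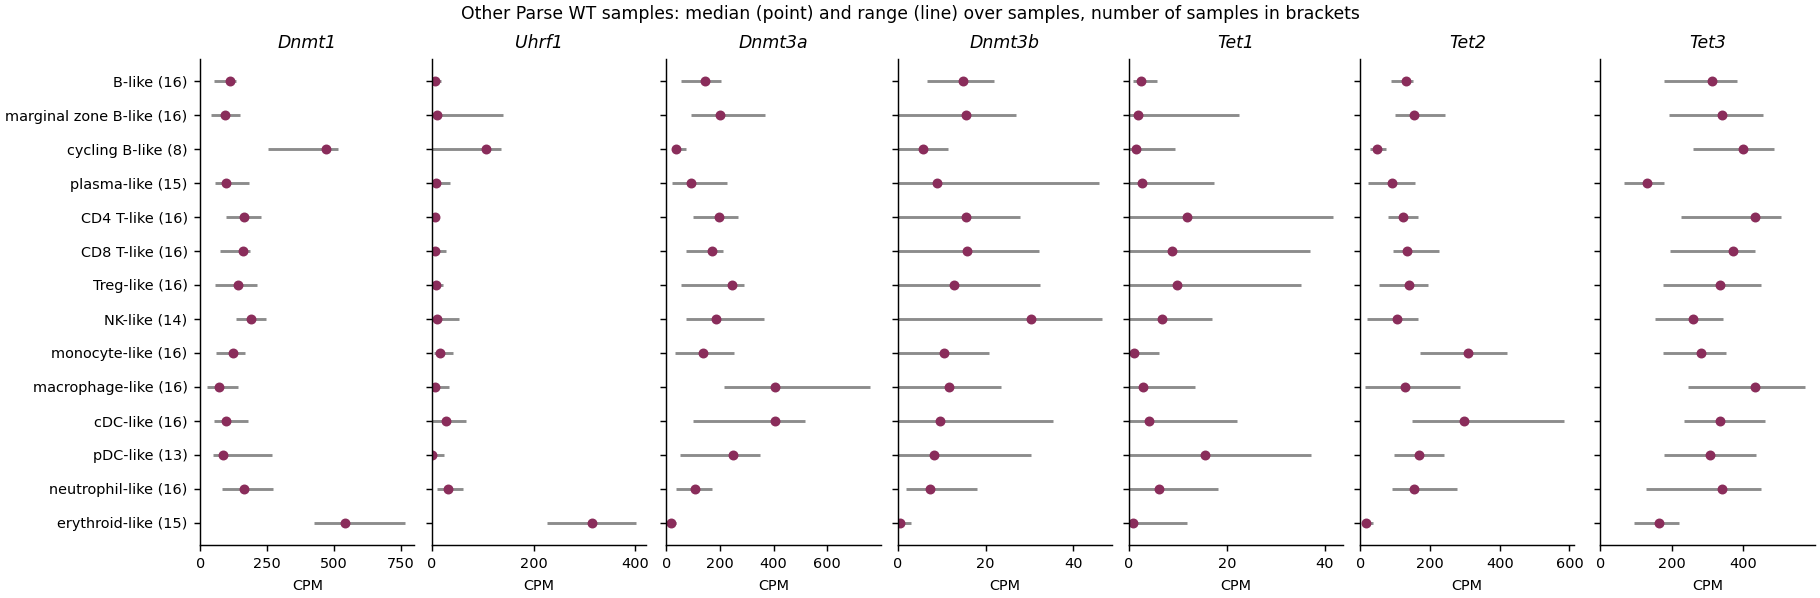
Each panel plots a member's level (x axis, CPM outside ribosomal RNA) in 14 cell types of the other 16 Parse WT samples (y axis, number of samples in brackets), with a point at the median and a line over the range of the samples. The points of Dnmt1 and Uhrf1 lie farthest right in erythroid-like cells, those of Dnmt3a in macrophage-like and cDC-like cells, and those of Tet2 in monocyte-like and cDC-like cells.

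The maintenance genes were also compared between cycling states within types of these samples. Only neutrophil-like and cycling B-like cells had both states in more than 2 samples. In neutrophil-like cells G2/M-high against cycling-low medians were 305 against 93.4 CPM for Dnmt1 and 85.3 against 4.20 CPM for Uhrf1, each higher in 10 of 10 samples with both states. Dnmt3a was lower, at 75.7 against 121 CPM, with 0 of 10 samples higher. Tet2 was at 141 against 151 CPM (4 of 10 higher). Tet3 was at 368 against 316 CPM (8 of 10) and Tet1 at 0 against 7.73 CPM (0 of 10). The neutrophil-like class joined 2 clusters, 1 of 2003 cells in which 12 of 12 G2/M markers were raised and 1 of 1349 cells, and the states were not compared within a cluster. In cycling B-like cells S-high against cycling-low medians were 791 against 207 CPM for Dnmt1 and 260 against 24.3 CPM for Uhrf1, each higher in 5 of 5 samples, and 22.1 against 57.2 CPM for Tet2, with 0 of 5 higher. In the remaining types G2/M-high against cycling-low Dnmt1 was at 109 against 112 CPM in B-like cells (1 of 2 samples higher). CD4 T-like cells had 216 against 168 CPM (1 of 2) and CD8 T-like cells 148 against 174 CPM (0 of 1). Monocyte-like cells had 226 against 85.6 CPM (2 of 2). Uhrf1 was higher in each sample except in CD4 T-like cells (0 against 4.90 CPM, 0 of 2). Tet2 was higher in 2 of 2 CD4 T-like, 1 of 2 B-like, 0 of 2 monocyte-like and 0 of 1 CD8 T-like samples.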

How the data were processed

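Split-pool libraries of the Parse WT and Parse Mini kits were made from fixed cells. The authors aligned the reads to the mouse genome mm10 with the split-pipe pipeline (version not given in the sources used here) and deposited UMI counts per gene and cell with a table that names each cell's tissue sample, which were used as deposited. A cell was kept between 500 and 25000 UMIs if its mitochondrial share was at most 15%, doublets called by likeness to artificial doublets, at the share of barcode collisions expected in each sample (0.430% to 5.91%), were removed, and thymic samples clustered with Seurat 5.3.0 (SCTransform, reciprocal PCA, 3000 features, 30 components, resolution 1.2) without the 7 members. The paper reports a higher share of doublets in both Parse libraries with scDblFinder, and how many doublets remain here was not tested. Clusters were named by marker lists and called "-like". Counts were summed per tissue sample and class of at least 20 cells and tested with the quasi-likelihood test of edgeR 4.0.16 (two-sided, Benjamini-Hochberg over all genes tested, threshold 0.05) with the tissue sample as a block, each kit on its own. The block pairs classes of the same lobe by design. DESeq2 1.42.0, other filters, cuts, clusterings and units were alternatives. CPM uses UMIs outside ribosomal RNA, and floors of 3 UMIs and binomial shares cover counting error only. No barcode within a kit was counted in more than 1 sample, 460 barcode strings occurred in both kits, and all 9 Parse WT sublibraries held cells of all 4 thymic samples. The test was checked on simulated counts. Members and lists were chosen with earlier results of these data known. Named genes were the members, the 2 largest called changes of each pathway list in each of 2 contrasts, and the 5 genes most like each member.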

Additional observations from a re-analysis of the deposited data

Results flagged for a closer look

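A sample was far from the other 3 of its group in 6 of 162 groups of 4 samples tested by Dixon's ratio, where chance marks about 1 in 20 groups. In Parse WT these were Dnmt3b in S-high cells, with sample 2 at 12.0 CPM against 13.2, 13.3 and 13.4, and Uhrf1 in cycling-low cells, with sample 4 at 23.9 CPM against 19.0, 19.6 and 19.7. In the Mini kit they were Uhrf1 in G2/M-high cells, with sample 2-B at 191 CPM against 157, 159 and 159, Dnmt3b in G2/M-high cells, with sample 2-A at 5.67 CPM against 7.65, 7.93 and 7.94, Tet2 in cycling-low cells, with sample 1-B at 123 CPM against 114, 114 and 115, and Tet3 in cycling-low cells, with sample 1-B at 263 CPM against 274, 274 and 275.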

How the results depend on the processing

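The main calls of the members were 13 of 14 in the cycling comparisons of each kit and 49 of 70 (Parse WT) and 37 of 56 (Mini) over the stages. Shares of all genes called stand beside the member counts of these comparisons above, and none are given for the alternatives below. Within the clusters named DP-like, where Dnmt3b had no value, the cycling calls became 5 of 12 in Parse WT and 4 of 12 in the Mini kit. S-high cells were few there, at 87 and 51, while G2/M-high cells were 1732 and 927. How many of these G2/M-high cells were in G2 or M phase was not tested. In this setting 6 values changed sign without being called. These were Tet1 in S-high (0.14) and Dnmt3a in G2/M-high cells (0.0811) of Parse WT. In the Mini kit they were Tet3 (0.13) and Tet2 (0.41) in S-high and Dnmt3a (0.0262) and Tet2 (0.0079) in G2/M-high cells. With cycling-low cells only, which left fewer classes, 24 of 49 and 19 of 42 stage values were called. Another clustering took Tet1 in Mini DP-S-like cells to 0.0234, and CPM over all UMIs took the B-like medians to 90.2 for Dnmt1, 95.5 for Tet2 and 251 for Tet3. Over all types of the other samples 28 medians moved by more than the SD of the samples with CPM over all UMIs and 105 did not, and 11 moved and 101 did not with cycling-low cells only. Another clustering of thymic cells kept the side of 64 of 70 Parse WT stage values. Clustering Parse WT with gene names sorted in another order, tried after the data were seen, left all 14 cycling values and 68 of 70 stage values on their side of the threshold and brought Uhrf1 in Treg-like cells (0.68, adjusted p = 0.0172, against 0.48 and 0.137) and Dnmt3b in cycling G2/M-like cells (0.74, adjusted p = 0.0398, against 0.66 and 0.0643) past it. Leaving out each sample in turn gave 11 to 13 cycling calls in both kits and 43 to 48 (Parse WT) and 34 to 37 (Mini) stage calls. Without the block that pairs classes of the same tissue sample, 9 (Parse WT) and 13 (Mini) cycling calls and 40 and 36 stage calls were made. DESeq2 and counts summed per mouse over both kits kept the side of the threshold of all 14 cycling values in each kit, with the uncalled Dnmt3a value in S-high Parse WT cells at -0.02 per mouse. Over the stages sums per mouse, in 2 readings of which lobes share a mouse, kept the side of 65 of 70 Parse WT values in each reading and of 48 and 47 of 56 Mini values, most of the others passing newly. The sums per mouse hold the mice of both kits and are set against the calls of each kit. The cause of the changes under these settings was not tested. Dnmt3b rests on few UMIs outside DN-like cells, Parse WT and Mini differ in mice and run so that their levels cannot be told apart by kit, and with 2 mice per kit the spread between animals is poorly measured.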

Other observations

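Over the 16 other Parse WT samples, which the labels put in no group, whole-sample Tet1 levels fell into 2 separate ranges. In rising order 11 samples were at 1.74, 2.08, 2.26, 2.47, 2.48, 3.54, 3.79, 3.80, 4.10, 4.91 and 5.83 CPM and 5 samples were at 11.04, 12.1, 13.4, 13.6 and 15.9 CPM. The 5 samples of the upper range share a name stem in the cell table that the labels do not explain. In their CD4 T-like cells Tet1 was at 34.0, 30.5, 38.8, 35.8 and 41.6 CPM on 37 to 132 UMIs, and in CD4 T-like cells of the 11 others it was at 0 to 14.3 CPM on at most 22 UMIs. In B-like cells the ranges overlapped, with Tet1 at 3.58 to 5.75 CPM in the 5 samples and 0.748 to 5.70 CPM in the 11. The summed level of the 7 DP-R-like markers in these CD4 T-like cells was 198 to 273 CPM in the 5 samples and 139 to 283 CPM in the 11.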
